A study of Mus musculus with 2 samples.

Results

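The Krüppel-like factor (KLF) genes Klf2, Klf3, Klf4, Klf5, Klf6, Klf7, Klf9, Klf10, Klf13 and Klf15 were followed in a survey of open chromatin in the mouse heart. All 10, of 24480 gene identifiers in the deposited peak table, were found by gene position on GRCm38, and together they held 32 of its 58076 peaks, of which 20 were promoter peaks, within 1 kb of an annotated transcription start, and 12 lay elsewhere. The assay was ATAC-seq, in which the Tn5 transposase inserts adapters into accessible DNA. The libraries came from heart nuclei of mice 15 days of age kept on a normal chow diet, 1 from Ythdc1 CKO mice, with a cardiac-specific deletion of Ythdc1, and 1 from Ythdc1flox/flox mice, which carry the floxed allele and served as the controls. The deleted gene encodes a nuclear protein that binds N6-methyladenosine on RNA. The sources used here name neither the Cre driver nor the number or sex of the animals behind each library.

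KLF proteins are zinc-finger transcription factors that bind GC boxes and CACCC boxes, sites they share with the related SP factors. Some members mainly activate and others mainly repress, and several are induced within hours by shear stress, cytokines or hormones. In the heart they are known from endothelial quiescence, the response of smooth muscle and fibroblasts to injury, and the hormonal and daily control of cardiomyocyte metabolism.

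The Ythdc1 CKO library held 6466537 counts in peaks and the Ythdc1flox/flox library 6755590. Counts were scaled by each library's total in peaks (CPM), and a difference is given as the ratio of Ythdc1 CKO to Ythdc1flox/flox. With 1 library per genotype there is no spread between animals and no test, so that the exact 95% intervals given with ratios cover counting error only, and every ratio is relative to all peaks together. The authors' own RPM scale lowers every log2 ratio by 0.17. Its constants imply library totals of 54884742 in Ythdc1 CKO and 50890585 in Ythdc1flox/flox. Relative to these totals, a smaller share of the Ythdc1 CKO library than of the Ythdc1flox/flox library lay in peaks. The reason for this was not tested, and it decides on which side of 1 a ratio near 1 falls. The single Ythdc1 peak, at its promoter, held 314 counts in Ythdc1 CKO and 358 in Ythdc1flox/flox (0.916, 0.785 to 1.07), which is no check of the deletion, since the floxed part may lie elsewhere in the gene. As a check of the tissue, all 8 cardiomyocyte markers examined had a promoter peak, while none of the 4 matched of 6 myeloid markers and none of the 4 matched of 5 epithelial markers did. The check is weak, since 14854 of the 24480 gene identifiers had a promoter peak. So did all 8 endothelial markers and all 6 matched fibroblast markers. The myeloid and epithelial markers each had 5 peaks outside promoters.

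The proximal promoters of 4 members are shown because the results below turn on them: Klf4 and Klf13, whose start-site peaks differed in ratio from other peaks of the same gene, Klf2, the highest of the 10 members per kb when promoter peaks are summed by gene, and Klf9, the only member of the 4 with no GC box. Each line is the 250 bases before the RefSeq start, 5′ to 3′ on the gene's strand (RefSeq, GRCm38.p6), and all 250 bases lie inside the start-site peak. Capitals mark motifs, each searched on both strands, and neighbouring motifs may touch or overlap. The GC box was searched as GGGCGG and the CACCC box as CCACCC, both bound by KLF and SP factors. The E-box was searched as CACGTG, the site of CLOCK, MYC and USF factors, and the CRE core, bound by CREB, as TGACGT. For the NF-Y site the letters CCAAT were used, and for MEF2 the letters CTA and TAG with 4 free bases between them.
Klf4 (chr4:55532476-55532725, minus strand): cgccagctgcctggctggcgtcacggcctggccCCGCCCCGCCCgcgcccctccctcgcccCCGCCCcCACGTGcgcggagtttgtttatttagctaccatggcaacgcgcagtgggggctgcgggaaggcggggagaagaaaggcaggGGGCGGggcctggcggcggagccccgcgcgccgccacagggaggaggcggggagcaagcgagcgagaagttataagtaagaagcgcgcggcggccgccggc
Klf13 (chr7:63938916-63939165, minus strand): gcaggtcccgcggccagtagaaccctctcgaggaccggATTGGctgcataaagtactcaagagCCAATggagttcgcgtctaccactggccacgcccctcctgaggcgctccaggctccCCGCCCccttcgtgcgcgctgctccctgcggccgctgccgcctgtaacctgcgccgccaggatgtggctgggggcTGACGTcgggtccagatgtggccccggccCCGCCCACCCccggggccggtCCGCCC
Klf2 (chr8:72318812-72319061, plus strand): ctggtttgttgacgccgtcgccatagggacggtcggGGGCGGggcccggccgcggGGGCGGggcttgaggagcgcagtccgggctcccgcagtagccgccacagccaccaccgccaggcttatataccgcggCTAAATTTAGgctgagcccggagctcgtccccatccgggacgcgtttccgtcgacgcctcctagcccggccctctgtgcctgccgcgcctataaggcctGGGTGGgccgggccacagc
Klf9 (chr19:23140976-23141225, plus strand): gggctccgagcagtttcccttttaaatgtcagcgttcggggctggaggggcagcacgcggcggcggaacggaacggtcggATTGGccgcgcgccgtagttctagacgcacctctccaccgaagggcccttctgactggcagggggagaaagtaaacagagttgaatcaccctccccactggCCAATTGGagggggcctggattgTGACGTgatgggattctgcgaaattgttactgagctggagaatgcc

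A promoter sequence was matched for 8 of the 10 members, all but Klf5 and Klf10. A GC box was present in 7 of these 8 windows, with Klf9 lacking one, against 32.7% of 32851 RefSeq promoter windows of the same length. The 8 windows were 59.2% (Klf7) to 78.4% (Klf3) G or C, and the RefSeq windows were not matched to them in base composition. A CACCC box was present in 4 of 8 (28.1% of all windows), an E-box in 3 (6.02%), a CCAAT box in 4 (33.8%) and a CRE core in 2 (6.47%). The MEF2 motif, the sequence through which the kinase ERK5 is known to induce Klf2, was found in the Klf2 window alone among the 8, as CTAAATTTAG, and in 3.20% of all windows. A full glucocorticoid receptor motif (the palindrome of AGAACA with 3 free bases between) was in none of the 8 windows and in 3 of all windows. These are matches of letters and not evidence of binding.

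Promoter accessibility of the family differed little between the libraries. Summed over the 20 promoter peaks, there were 7230 counts in Ythdc1 CKO and 7342 in Ythdc1flox/flox, a ratio of 1.03 (0.996 to 1.06), against 1.008 over all 19366 promoter peaks. The median log2 ratio of the 20 was 0.04, and their middle part ran from -0.04 to 0.25 between quartiles, against a median of -0.02 and quartiles of -0.25 and 0.21 over all promoter peaks. Above 0 were 13 of the 20, or 65%, against 47.6% of all promoter peaks, and the counting interval left out 1 for 8 (32.2% of all promoter peaks), 5 above and 3 below. The ratio on the authors' RPM scale was 0.913, on the other side of 1.
Outside promoters, the 12 peaks summed to 1258 counts in Ythdc1 CKO and 1201 in Ythdc1flox/flox, a ratio of 1.09 (1.01 to 1.19), or 0.971 on the RPM scale. Their log2 ratios ran from -0.96 to 0.93 with a median of 0.07, wider than at promoters, and 7 of 12 lay above 0 (45.0% of all peaks outside promoters). The interval left out 1 for 6 of the 12 (43.0% of such peaks), 4 above and 2 below.

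**Figure D1:**
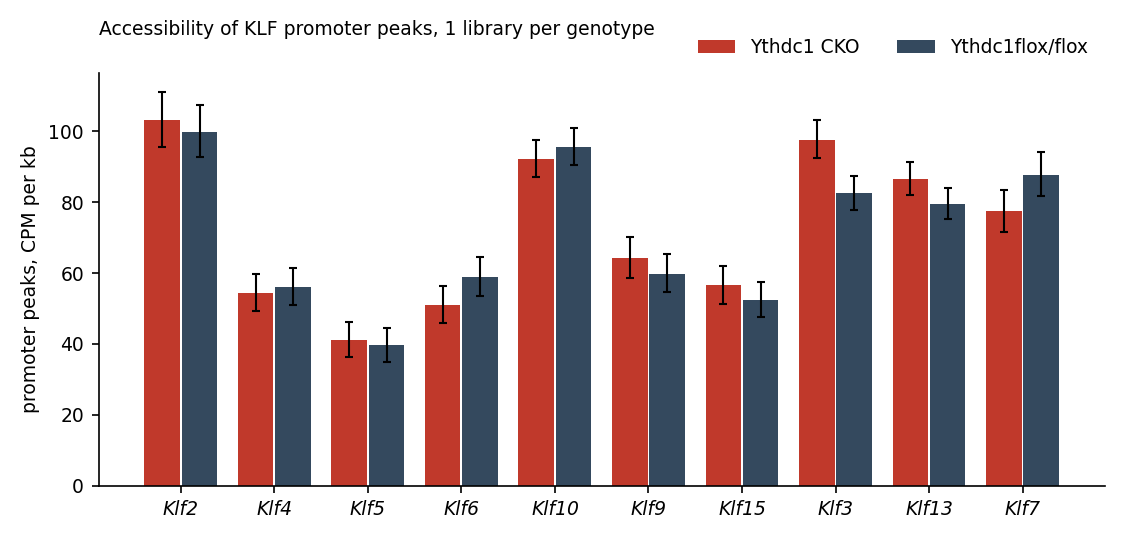
Promoter peak accessibility of each KLF gene (vertical axis: summed CPM per kb of promoter peak) in the Ythdc1 CKO library (red, left) and the Ythdc1flox/flox library (dark blue, right). Error bars are exact 95% Poisson intervals for counting error. Klf2, Klf3 and Klf10 were the most accessible per kb in the Ythdc1 CKO library and Klf5 the least, and the bars of most genes lie close together.

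Among the members, promoter accessibility per kb of peak in the Ythdc1 CKO library was highest at Klf2 (103 CPM per kb), followed by Klf3 (97.6), Klf10 (92.3), Klf13 (86.6), Klf7 (77.4), Klf9 (64.2), Klf15 (56.5), Klf4 (54.3), Klf6 (51.0) and Klf5 (41.0). In the Ythdc1flox/flox library the order was Klf2 (99.9 CPM per kb), Klf10 (95.7), Klf7 (87.7), Klf3 (82.5), Klf13 (79.5), Klf9 (59.7), Klf6 (58.8), Klf4 (56.0), Klf15 (52.4) and Klf5 (39.6). Klf2 led and Klf5 came last in both libraries, and Klf3 changed place with Klf7 and Klf10. This order depends on summing promoter peaks per gene, of which Klf2 had 1 and Klf3 had 3. Taken singly, the Klf3 start-site peak was above Klf2 in both libraries. It held 142 CPM per kb in Ythdc1 CKO and 121 in Ythdc1flox/flox. Summed per gene, the counting interval of the promoter ratio held 1 in 6 of 10 members, lay above 1 for Klf3 and Klf13 and below 1 for Klf6 and Klf7. With TMM scaling the interval lay above 1 for the same Klf3 and Klf13 and below 1 for no member, and on the RPM scale it lay above 1 for none and below 1 for 4, namely Klf4, Klf6, Klf7 and Klf10.

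**Figure D2:**
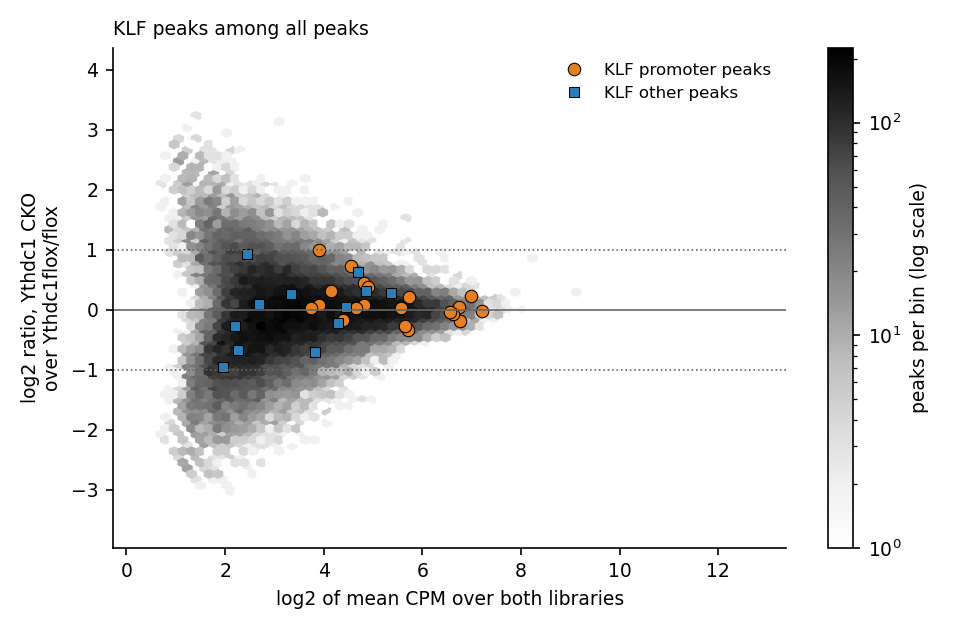
Log2 ratio of Ythdc1 CKO over Ythdc1flox/flox (vertical axis) against the log2 of mean CPM (horizontal axis) for all 58076 peaks (grey, darker for more peaks per bin), with the 20 KLF promoter peaks (orange circles) and the 12 other KLF peaks (blue squares). Dotted lines mark 2-fold. The KLF peaks lie inside the cloud of all peaks, and 1, a Klf4 promoter peak, reaches the upper line.

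Of the 32 peaks, 1 was at least 2-fold higher in Ythdc1 CKO, against 6.09% of all peaks, and 0 were at least 2-fold lower, against 8.96%, so that 1 of 32 was past 2-fold where 15.0% of all peaks were. The 1 was among the 20 promoter peaks (2.70% of all promoter peaks higher, 2.87% lower), and none was among the 12 others (7.79% higher, 12.0% lower). At 1.5-fold, 4 were higher (14.4% of all peaks) and 3 lower, 7 in all against 34.5% of all peaks. The counting interval left out 1 for 14 of 32 peaks (39.4% of all peaks), above 1 for 9 (17.7%) and below 1 for 5 (21.7%), and 20 of 32 log2 ratios lay above 0 (45.9% of all peaks). KLF peaks had more counts than most, a median of 168 per peak and library against 62.5 over all peaks, and the plot of all peaks shows that log2 ratios spread less at high counts. Both libraries had called 26 of the 32 peaks (81.25%), against 55.0% of all peaks. None of the 26 was past 2-fold (0.851% of all peaks called in both were higher and 1.02% lower). Called in Ythdc1 CKO alone were 2 of the 32, against 9234 of all 58076 peaks. Called in Ythdc1flox/flox alone were 4, against 16885 of all peaks. A peak called in 1 library alone is selected for signal there: 35.3% of all peaks called in Ythdc1 CKO alone were at least 2-fold higher, and 28.9% of those called in Ythdc1flox/flox alone at least 2-fold lower.

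Klf2 and Klf4 are the members known for keeping endothelium quiescent under flow, and Klf4 is also a pluripotency factor and a switch of smooth muscle phenotype. The Klf2 start-site peak (ENSMUSG00000055148, chromosome 8, 72318666 to 72319728), which covers the sequence above, held 708 counts in Ythdc1 CKO and 717 in Ythdc1flox/flox, a ratio of 1.03 (0.929 to 1.15). It was stronger than 99.3% of all peaks.
Of a pair of intergenic peaks downstream of Klf2, the farther one was lower. The nearer, 5242 bp from the start, held 291 counts in Ythdc1 CKO and 249 in Ythdc1flox/flox (ratio 1.22, 1.03 to 1.45), and the farther, at 12645 bp, held 69 counts in Ythdc1 CKO and 118 in Ythdc1flox/flox (0.611, 0.447 to 0.829). Set against the start-site peak, which removes the scaling of the libraries, the farther peak had a ratio of 0.592 (0.426 to 0.819) and the nearer one 1.18 (0.966 to 1.45). The interval of the nearer peak also held 1 on the RPM scale (1.08, 0.912 to 1.29).

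Klf4 had the only member peak past 2-fold. This peak (ENSMUSG00000003032, chromosome 4, 55531106 to 55531468), 302 bp past an annotated transcript start inside the gene, held 129 counts in Ythdc1 CKO and 67 in Ythdc1flox/flox, a log2 ratio of 1.003 and a ratio of 2.01 (1.49 to 2.74). It sits at the edge of the rule and was called in the Ythdc1 CKO library alone, and its log2 ratio was 0.83 on the RPM scale and 0.96 with 5 counts added, both under 2-fold. The peak over the main start (55532330 to 55533183) held 298 counts in Ythdc1 CKO and 393 in Ythdc1flox/flox, a ratio of 0.792 (0.679 to 0.923). The ratio of the internal peak over that of the start-site peak, which no scaling changes, was 2.54 (1.80 to 3.59). The other internal peak, from 55530004, held 207 counts in Ythdc1 CKO and 173 in Ythdc1flox/flox (1.25, 1.02 to 1.54), and the upstream peak, from 55541135, held 71 counts in Ythdc1 CKO and 62 in Ythdc1flox/flox (1.20, 0.839 to 1.71). Relative to the start-site peak their ratios were 1.58 (1.22 to 2.05) and 1.51 (1.02 to 2.23). Summed over both promoter peaks of Klf4, the ratio was 0.970 (0.848 to 1.11).

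Markers of other heart cell types were examined in the same way. Over 8 endothelial markers, the strongest promoter peak of each summed to 1135 counts in Ythdc1 CKO and 948 in Ythdc1flox/flox, a ratio of 1.25 (1.15 to 1.36). Over 8 cardiomyocyte markers the sums were 2234 counts in Ythdc1 CKO and 2722 in Ythdc1flox/flox (0.857, 0.810 to 0.907), over 6 fibroblast markers 712 counts in Ythdc1 CKO and 608 in Ythdc1flox/flox (1.22, 1.10 to 1.37), and over 6 mural markers 658 counts in Ythdc1 CKO and 582 in Ythdc1flox/flox (1.18, 1.05 to 1.32). Over all their peaks, mural markers summed to 1296 counts in Ythdc1 CKO and 1476 in Ythdc1flox/flox (0.917, 0.851 to 0.989), the other way from their promoters. The fibroblast markers were split, 3 above 0 and 3 below with a median log2 ratio of 0.05, and without Pdgfra they summed to 342 counts in Ythdc1 CKO and 336 in Ythdc1flox/flox (1.06, 0.912 to 1.24). On the RPM scale the intervals held 1 for fibroblast (1.09, 0.973 to 1.21) and mural markers (1.05, 0.936 to 1.17) and lay above 1 for endothelial markers (1.11, 1.02 to 1.21). The myeloid markers' 5 peaks, none at a promoter, held 230 counts in each library. Those of the epithelial markers, also 5 and outside promoters, held 401 counts in Ythdc1 CKO and 322 in Ythdc1flox/flox (1.30, 1.12 to 1.51). That ratio was above the 1.15 (1.10 to 1.19) of the endothelial markers over all their peaks. The part of these cell types in the KLF ratios was not tested, and in whole heart fewer nuclei of a cell type and less accessibility per nucleus cannot be told apart.

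Klf5, Klf6 and Klf10 are linked to growth and injury. Klf5 takes part in vascular remodelling and in cardiomyocytes controls Ppara, Klf6 is an early response gene of vascular and liver injury, and Klf10 was first described as a gene induced early by TGF-beta. Klf5 (ENSMUSG00000005148) had no peak beyond its promoter. Its peak from 99298360 on chromosome 14 held 165 counts in Ythdc1 CKO and 168 in Ythdc1flox/flox (ratio 1.03, 0.823 to 1.28), and that from 99298905 held 99 counts in Ythdc1 CKO and 98 in Ythdc1flox/flox (1.06, 0.790 to 1.41). No difference was detectable in either peak at this depth.
Klf10 (ENSMUSG00000037465, chromosome 15) had 2 start-site peaks at separate annotated starts. The peak from 38298884 held 621 counts in Ythdc1 CKO and 683 in Ythdc1flox/flox (0.950, 0.851 to 1.06), and that from 38300617 held 601 counts in Ythdc1 CKO and 641 in Ythdc1flox/flox (0.980, 0.875 to 1.10). The starts did not differ in ratio beyond counting error (1.03, 0.880 to 1.21).

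Klf6 (ENSMUSG00000000078, chromosome 13) had a ratio below 1 at its main start. The peak from 5860734 to 5861641 held 294 counts in Ythdc1 CKO and 370 in Ythdc1flox/flox, a ratio of 0.830 (0.710 to 0.970). The second promoter peak, from 5863639 and called in Ythdc1flox/flox alone, held 87 counts in Ythdc1 CKO and 89 in Ythdc1flox/flox (1.02, 0.751 to 1.39), and the peak in the 3′ UTR, from 5870378, held 117 counts in Ythdc1 CKO and 142 in Ythdc1flox/flox (0.861, 0.668 to 1.11). Over all 3 peaks the ratio was 0.866 (0.767 to 0.976). Summed over both promoter peaks of Klf6 it was 0.867 (0.755 to 0.996). With TMM scaling this promoter ratio was 0.899 (0.783 to 1.03), an interval that held 1, and on the RPM scale 0.770 (0.670 to 0.884).

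Klf9 and Klf15 are both induced by glucocorticoids, Klf9 also by thyroid hormone, and Klf15 is known in the heart as a brake on hypertrophy and a regulator of amino acid and lipid use. The Klf9 start-site peak (ENSMUSG00000033863, chromosome 19, 23140677 to 23141414) held 367 counts in Ythdc1 CKO and 330 in Ythdc1flox/flox, a ratio of 1.16 (0.999 to 1.35), and the next promoter peak, from 23141732, held 128 counts in Ythdc1 CKO and 151 in Ythdc1flox/flox (0.886, 0.694 to 1.13). Neither interval left out 1.
Klf15 (ENSMUSG00000030087, chromosome 6) had a ratio near 1 in its stronger promoter peak, from 90463170, with 311 counts in Ythdc1 CKO and 318 in Ythdc1flox/flox (1.02, 0.871 to 1.20), and held 128 counts in Ythdc1 CKO and 107 in Ythdc1flox/flox in the one at the RefSeq promoter start, from 90462258 (1.25, 0.959 to 1.63). Its intronic peak (90471033 to 90471578) held 203 counts in Ythdc1 CKO and 136 in Ythdc1flox/flox, a ratio of 1.56 (1.25 to 1.95). Relative to the stronger promoter peak, the intronic one was higher by 1.53 (1.16 to 2.01), and no such difference was seen between the promoter peaks (1.22, 0.896 to 1.67).

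Klf3, a repressor that recruits the CtBP corepressors, was the member with the highest summed promoter ratio. Its start-site peak (ENSMUSG00000029178, chromosome 5, 64802756 to 64803721) held 885 counts in Ythdc1 CKO and 787 in Ythdc1flox/flox (1.17, 1.07 to 1.29). The internal promoter peak from 64812115 held 209 counts in Ythdc1 CKO and 160 in Ythdc1flox/flox (1.36, 1.11 to 1.69), and that from 64811490 held 189 counts in Ythdc1 CKO and 186 in Ythdc1flox/flox (1.06, 0.862 to 1.31). Summed, the promoter ratio was 1.18 (1.09 to 1.28), but 1.05 (0.969 to 1.14) on the RPM scale.
The 4 intergenic peaks assigned to Klf3 had log2 ratios of -0.26 to 0.93. The highest, from 64866791, held 46 counts in Ythdc1 CKO and 25 in Ythdc1flox/flox and was called in Ythdc1 CKO alone (1.92, 1.16 to 3.26), and the lowest, from 64864722, held 27 counts in Ythdc1 CKO and 34 in Ythdc1flox/flox and was called in Ythdc1flox/flox alone (0.830, 0.481 to 1.42).

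Klf13, known as a cofactor of cardiac transcription factors and, in Xenopus, as needed for heart development, had a ratio near 1 at its start and higher ratios inside the gene. The start-site peak (ENSMUSG00000052040, chromosome 7, 63938453 to 63939986), the strongest of all member peaks, held 946 counts in Ythdc1 CKO and 1004 in Ythdc1flox/flox, a ratio of 0.984 (0.900 to 1.08), or 0.874 (0.799 to 0.956) on the RPM scale. The promoter peak of an internal transcript, from 63925336 to 63925896, held 190 counts in Ythdc1 CKO and 120 in Ythdc1flox/flox (1.65, 1.31 to 2.10). Another promoter peak, from 63937666 and 922 bp past the start of the same transcript as the start-site peak, held 219 counts in Ythdc1 CKO and 176 in Ythdc1flox/flox (1.30, 1.06 to 1.59). Relative to the start-site peak the internal ones were higher by 1.68 (1.31 to 2.17) and 1.32 (1.06 to 1.65).

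Klf7, known for axon growth, was, with Klf10, a member whose assigned peaks all had log2 ratios below 0. Another 5 peaks in or within 5 kb of Klf7 were assigned to other identifiers. Of these, 4 had log2 ratios above 0 (45.9% of all peaks), over a range from -0.50 to 1.58. The start-site peak (ENSMUSG00000025959, chromosome 1, 64121237 to 64122548) held 656 counts in Ythdc1 CKO and 777 in Ythdc1flox/flox (0.882, 0.794 to 0.980). Its intronic peak, from 64104830, held 24 counts in Ythdc1 CKO and 40 in Ythdc1flox/flox (0.627, 0.361 to 1.07), and the upstream intergenic peak, from 64134619, held 17 counts in Ythdc1 CKO and 35 in Ythdc1flox/flox (0.507, 0.267 to 0.930), a log2 ratio of -0.96 just inside 2-fold. Both weak peaks were called in Ythdc1flox/flox alone.

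**Figure D3:**
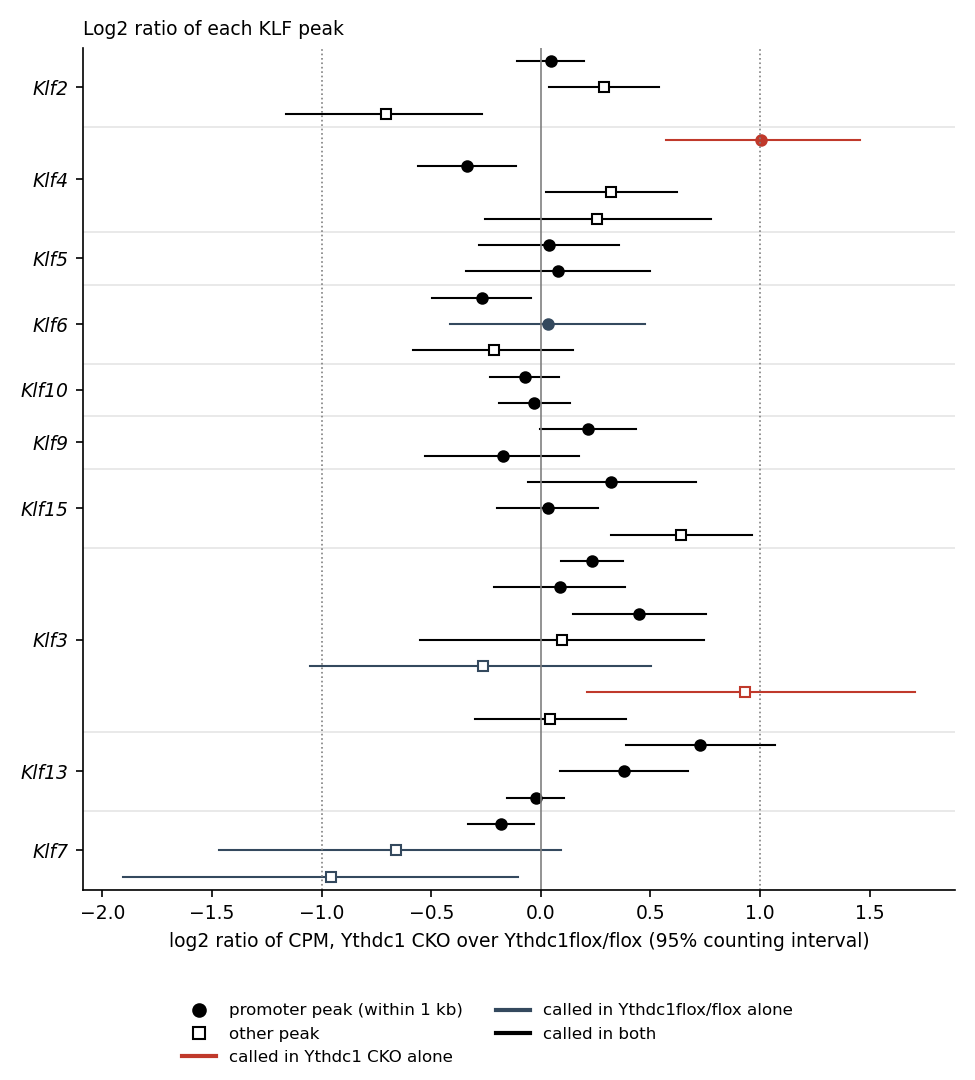
Log2 ratio of Ythdc1 CKO over Ythdc1flox/flox (horizontal axis, with 95% counting intervals) for each of the 32 KLF peaks, grouped by gene. Filled circles are promoter peaks and open squares other peaks; red and dark blue mark peaks called in 1 library alone. Most promoter peaks lie near 0, with the internal Klf4 peak at 1.003 and the upstream Klf7 peak at -0.96 as the extremes.

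The strongest promoter peak of each member was also set against the member's other promoter peaks, a split made after the values were seen. The 10 strongest peaks summed to 5251 counts in Ythdc1 CKO and 5547 in Ythdc1flox/flox, a ratio of 0.989 (0.952 to 1.03), with a median log2 ratio of 0.0042. The 10 other promoter peaks, of 8 genes, summed to 1979 counts in Ythdc1 CKO and 1795 in Ythdc1flox/flox, a ratio of 1.15 (1.08 to 1.23), with a median log2 ratio of 0.20 and 8 of 10 above 0. The ratio between these ratios, which no scaling changes, was 1.16 (1.08 to 1.26). It rested on 3 peaks of Klf4 and Klf13: the other 7 peaks summed to 1441 counts in Ythdc1 CKO and 1432 in Ythdc1flox/flox, a ratio of 1.05 (0.976 to 1.13), or 1.06 (0.978 to 1.16) relative to the strongest peaks. Without the Klf4 peak alone the ratio was 1.12 (1.05 to 1.19), and on the RPM scale all 10 had 1.02 (0.959 to 1.09). Over all genes, the median log2 ratio was -0.02 for 14854 strongest promoter peaks and 0.0072 for 4512 other promoter peaks, of which 50.6% lay above 0.

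Within genes, 22 member peaks could be set against the strongest promoter peak of their gene. The interval of the ratio between ratios left out 1 in 7 of 22 pairs, 6 above and 1 below, against 38.3% of 24884 such pairs over all genes, 18.2% above. The 6 above were at Klf4 (3), Klf13 (2) and Klf15 (1), and the 1 below was at Klf2. The share for the members is thus near that of all genes. Pairs of 1 gene share the same strongest promoter peak, so they are not independent of each other. For the 3 pairs at Klf4 that peak itself had a ratio of 0.792.

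The authors' table assigns some peaks within or near these genes to other identifiers, so neighbouring peaks were also examined whatever their assignment. Within 50 kb of the 10 RefSeq starts lay 71 peaks, of which 6 (8.45%) were at least 2-fold higher, against 6.09% of all peaks, and 0 at least 2-fold lower. All 6 were called in Ythdc1 CKO alone, and 5 belonged to other identifiers. Just past the end of Klf9, a peak on chromosome 19 from 23169422 to 23169914 held 112 counts in Ythdc1 CKO and 44 in Ythdc1flox/flox, a ratio of 2.66 (1.86 to 3.86). Upstream of Klf9, the strong peak from 23133947 to 23136193 held 1201 counts in Ythdc1 CKO and 1132 in Ythdc1flox/flox (1.11, 1.02 to 1.20). At Klf13, 6 of 7 peaks inside the gene that were assigned to other identifiers had log2 ratios above 0 (45.9% of all peaks), over a range from -0.37 to 1.30. The highest of them, from 63896254 to 63896525, held 100 counts in Ythdc1 CKO and 42 in Ythdc1flox/flox (2.49, 1.72 to 3.66), and the lowest, from 63911357 to 63912364, held 442 counts in Ythdc1 CKO and 597 in Ythdc1flox/flox (0.773, 0.682 to 0.876).

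**Figure D4:**
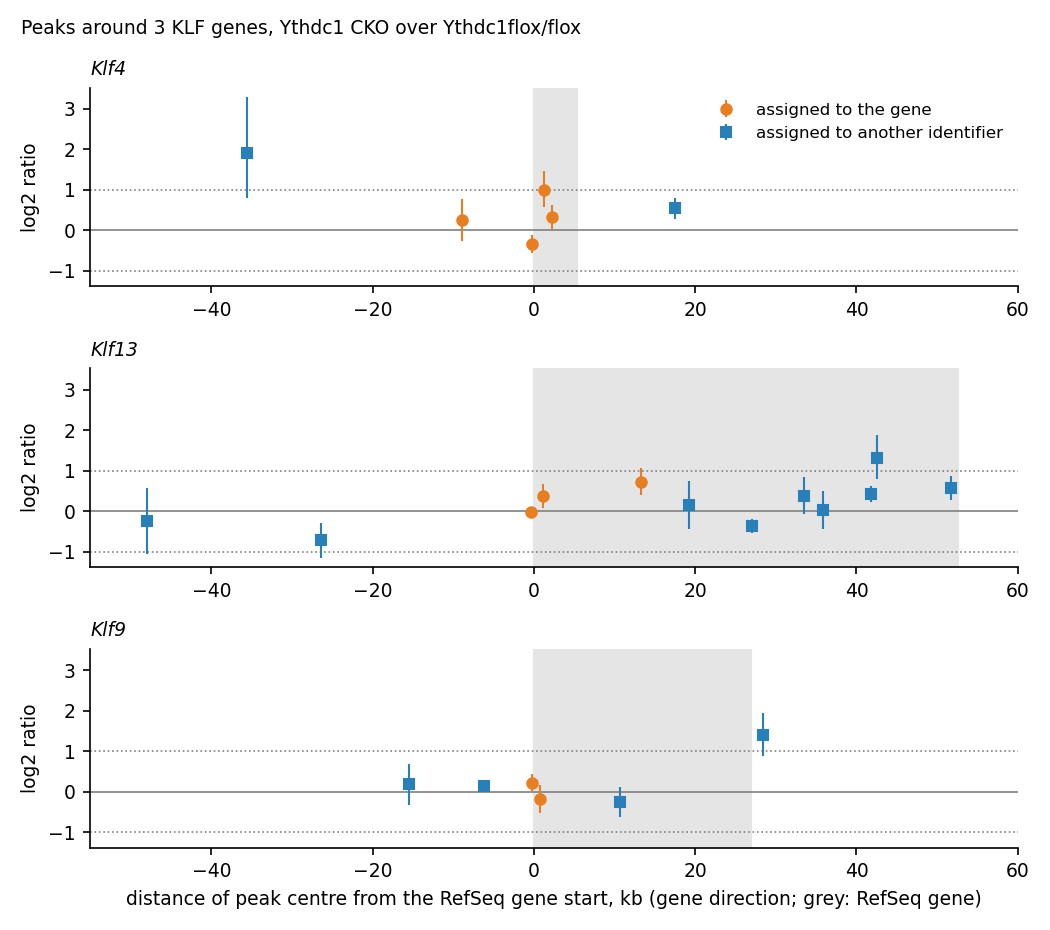
Log2 ratio of Ythdc1 CKO over Ythdc1flox/flox (vertical axis, with 95% counting intervals) by distance of the peak centre from the RefSeq gene start in kb (horizontal axis, in gene direction) at Klf4, Klf13 and Klf9. Orange circles are peaks assigned to the gene, blue squares peaks assigned to other identifiers, and the grey band is the gene. The start-site peaks of Klf13 and Klf9 lie near 0 and that of Klf4 at -0.34, while single peaks inside Klf4 and Klf13 and past the end of Klf9 lie at 1 or above. A weak peak upstream of Klf4, assigned to another identifier, is the highest at 1.91.

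Of 16 other KLF and SP genes, 12 were matched and 10 had a promoter peak. Their summed ratio was below 1 on the CPM scale, with 4215 counts in Ythdc1 CKO and 4661 in Ythdc1flox/flox at the strongest promoter peak of each (0.945, 0.906 to 0.985), and 0.927 (0.893 to 0.962) over all 28 peaks. At the strongest promoter peaks the median log2 ratio was -0.06, 5 lay above 0 and 5 below, and none was past 2-fold, against 4.33% of the strongest promoter peaks of all genes, 2.04% higher and 2.29% lower. Among all 28 peaks 1 was at least 2-fold higher (3.57%, against 6.09% of all peaks) and 3 at least 2-fold lower (10.7%, against 8.96%). Over all genes, the counting interval lay below 1 for 2507 of 14854 strongest promoter peaks and above 1 for 2101. Here it lay below 1 for 3 of the 10 genes and above 1 for none. The 3, named after their values were seen, were Klf12 (185 counts in Ythdc1 CKO and 244 in Ythdc1flox/flox, 0.792, 0.651 to 0.963), Sp2 (531 counts in Ythdc1 CKO and 678 in Ythdc1flox/flox, 0.818, 0.729 to 0.918) and Sp4 (1062 counts in Ythdc1 CKO and 1274 in Ythdc1flox/flox, 0.871, 0.802 to 0.945). Sp2 and Sp4 hold a large part of the summed counts, and no sum without them was computed. Nor was the sum computed with TMM scaling, which raises every log2 ratio by 0.052. The highest was Klf14 with 63 counts in Ythdc1 CKO and 54 in Ythdc1flox/flox (1.22, 0.834 to 1.79), and the lowest Sp5 with 34 counts in Ythdc1 CKO and 52 in Ythdc1flox/flox (0.683, 0.430 to 1.07), both weak peaks whose intervals hold 1. The Sp5 peak was called in Ythdc1flox/flox alone.

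Of 20 genes listed as acting upstream of KLF factors or as their partners, 18 had a promoter peak. None of the 18 was past 2-fold at its strongest promoter peak, near the background of 4.33%, and the median log2 ratio there was -0.0085. Among all 100 peaks of these genes, 2 were at least 2-fold higher (6.09% of all peaks) and 4 at least 2-fold lower (8.96% of all peaks). Crebbp, a coactivator acetylating histones and KLF proteins, was highest with 317 counts in Ythdc1 CKO and 263 in Ythdc1flox/flox (1.26, 1.07 to 1.49), and Fhl3, a LIM-domain partner of Klf3, lowest with 97 counts in Ythdc1 CKO and 164 in Ythdc1flox/flox (0.618, 0.476 to 0.799). The Fhl3 peak was called in Ythdc1flox/flox alone and so is selected for signal there.

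All 20 genes listed as KLF targets had a promoter peak. At the strongest promoter peak none was past 2-fold, near the background of 4.33%, and the median log2 ratio was -0.05, with 8 above 0 and 12 below. Among all 105 peaks of these genes, 6 were at least 2-fold higher (5.71%, against 6.09% of all peaks) and 3 at least 2-fold lower (2.86%, against 8.96%). Cdkn1a, a cell cycle inhibitor activated by Klf4 and Klf6, was highest with 254 counts in Ythdc1 CKO and 186 in Ythdc1flox/flox (1.43, 1.18 to 1.73). Gpt, an alanine aminotransferase gene controlled by Klf15 in liver and muscle, was lowest with 100 counts in Ythdc1 CKO and 177 in Ythdc1flox/flox (0.590, 0.457 to 0.758).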

How the data were processed

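ATAC-seq of 1 Ythdc1 CKO and 1 Ythdc1flox/flox heart library was grouped by the genotype label. Per the submitters' processing notes, BWA, MACS2 and build GRCm38.p6 were used. Versions, read filters, any Tn5 shift and the counted unit (read, fragment or cut) are not stated in the sources used here. The deposited counts are whole numbers per peak of a set merged over both libraries, per the file headers. The authors' RPM values equal (count + 1) times 1 constant per library, 0.01822 in Ythdc1 CKO and 0.01965 in Ythdc1flox/flox. The authors' fold enrichment, a ratio, served as an alternative filter, and the deposited log2 ratio was not used here.

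Identifiers took the symbol of a RefSeq gene by position, where the overlap of the spans was 0.5 or more of their union and 2 or more times the runner-up's, or where the only identifier with ontology terms lay at least 95% inside it. Members and lists were chosen with earlier results of these data known. All member peaks were described; of the other lists, genes past 2-fold or else the highest and lowest at their strongest promoter peak were named. Neighbouring peaks were named after their values were seen. Log2 ratios used CPM over peaks with 0.5 counts added; ratios have exact (Clopper-Pearson) 95% intervals, and ratios between ratios an exact conditional interval (scipy 1.17.1), or, for counts over all genes, a normal approximation. Intervals treat counts as independent molecules. The intervals were computed on simulated independent Poisson counts, the model they assume. That simulation checks the code only, and not duplicate reads or spread between animals. TMM factors came from edgeR 4.0.16. There was no replicate and no p-value. The table gives peak starts as printed; peak sequences were not used here, since no genome was at hand.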

Additional observations from a re-analysis of the deposited data

How the results depend on the processing

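No paired analysis was possible because there is 1 library per genotype and no test. Replicates could not be left out for the same reason. The cause of the shifts below was not tested. The summed promoter ratio of the KLF peaks, 1.03, became 1.07 with TMM, 1.07 with the median of all peaks set to 0 and 0.913 on the RPM scale, and stayed within its counting interval under the other 7 alternatives. Among these, the filters for fold enrichment of at least 10 and for a mean of at least 20 counts kept all 20 promoter peaks. They could therefore not move the ratio. The summed ratio outside promoters, 1.09, became 0.971 on the RPM scale. The 1 KLF peak at least 2-fold higher became 0 on the RPM scale, with 5 counts added or among peaks called in both libraries, 2 (at Klf4 and Klf3) with a loess trend removed, 4 at 1.5-fold, 6 within 50 kb of the starts and 4 within 5 kb of the gene spans. The 0 at least 2-fold lower became 1, at Klf7, on the RPM scale and 3 at 1.5-fold. Of all peaks, 8738 were past 2-fold, against 599 among those called in both libraries, 3207 with fold enrichment of at least 10 and 20023 at 1.5-fold; the higher ones made up 40.5%, but 24.9% on the RPM scale and 68.5% with loess. Of 160 alternative values of single KLF peaks, 6 left their counting interval, all on the RPM scale, and 12 changed sign, none of them at the Klf4 peak past 2-fold. The 5 kb rule, and leaving out the Klf4 and Klf13 peaks or Pdgfra, were added after the data were seen. Weak peaks, such as those of Klf7 with 17 to 40 counts, limit what a single ratio shows.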

Other observations

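Further peaks near the KLF genes that the table assigns to other identifiers were at least 2-fold higher in Ythdc1 CKO and were called in that library alone. Upstream of Klf2, the peak on chromosome 8 from 72303074 to 72303320 held 68 counts in Ythdc1 CKO and 30 in Ythdc1flox/flox, a ratio of 2.37 (1.52 to 3.77). Upstream of Klf4, the peak on chromosome 4 from 55567914 to 55568113 held 30 counts in Ythdc1 CKO and 8 in Ythdc1flox/flox (3.92, 1.75 to 9.89). Downstream of Klf10, the peak on chromosome 15 from 38272809 to 38273046 held 64 counts in Ythdc1 CKO and 18 in Ythdc1flox/flox (3.71, 2.17 to 6.66), and past the end of Klf7, the peak on chromosome 1 from 64027748 to 64028042 held 41 counts in Ythdc1 CKO and 14 in Ythdc1flox/flox (3.06, 1.63 to 6.08). No peak within 50 kb of a KLF start was at least 2-fold lower, against 8.96% of all peaks, and the lowest near one assigned to another identifier lay upstream of Klf13, from 63965083 to 63965563, with 73 counts in Ythdc1 CKO and 126 in Ythdc1flox/flox (0.605, 0.447 to 0.814).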
